A study of Mus musculus with 6 samples.

Results

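The genes described here carry the hedgehog signal from the cell surface to the nucleus: the receptor Ptch1, the transducer Smo, the co-receptors Boc, Cdon and Gas1, the ligand-binding antagonist Hhip, and the transcription factors Gli1, Gli2 and Gli3. All probe sets whose platform annotation names only 1 of these 9 genes were taken, which gave 24 probe sets of the 45037 on the array other than controls. The samples were outflow tracts, the vessel through which blood leaves the embryonic heart, of CD1 mouse embryos at embryonic day 10.5, cut into a superior and an inferior subdomain. Pooled pieces were measured on Affymetrix whole-genome mouse arrays, with superior pools 1, 6 and 7 and inferior pools 1, 6 and 7, so 3 arrays a region. No mutation or treatment is given in the labels. By the labels a pool holds tissue of 6 embryos of 1 litter, whereas the design text speaks of 7 pieces of each domain. Neither says whether the pools came from separate litters, so the p-values rest on variation among these samples, which may be technical, and on a variance that the fit draws towards that of other probe sets.

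Hedgehog ligands are secreted proteins that bind Ptch1 and so release Smo from inhibition. Active Smo, acting at the primary cilium, stops Gli3 and Gli2 from being cut into repressors and lets Gli2 work as an activator. Gli1, Ptch1 and Hhip are themselves switched on by the signal and serve as readouts of it, whereas Gas1, Cdon and Boc help cells to bind ligand and are known in other mouse tissues to be turned down by it. In the mouse, Sonic hedgehog made by the pharyngeal endoderm is needed by neighbouring heart progenitors and neural crest cells for growth and division of the outflow tract.

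No hedgehog probe set was called different between the regions. Ptch1, Smo, Boc, Cdon, Gas1, Gli2 and Gli3 each had at least 1 probe set bright enough to test, Gli1 was dim on all arrays, and Hhip had no signal above background. The nearest to a regional difference were Gli3, whose signal was lower in the superior than in the inferior piece of all 3 pools on both tested probe sets, and Gas1, whose tested probe sets pointed in opposite directions.

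The signals are MAS5 intensities made by the authors, a measure relative to the rest of each array. They were compared as log2(signal + 3.2), superior minus inferior, with the pool number as a block, in limma fitted to all 22518 probe sets above a mean signal of about 15.1, and a call is a Benjamini-Hochberg adjusted p threshold of 0.05 over all of these. A signal above 8.0, the highest of 27 control probe sets for Bacillus transcripts, which mouse tissue lacks, is said to be above background. Across the arrays, 58.4% to 63.1% of probe sets were above it. Genes of heart muscle, endothelium, cushion mesenchyme and epicardium were above background on all 6 arrays in 5 of 5 cases each. Of 5 second heart field genes, 5 were also above it everywhere, whereas 3 of 5 neural crest genes and 3 of 5 epithelial genes were. The precision is limited by the number of arrays, which was 3 a region.

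Of the 24 probe sets, 12 passed the filter on dim signal, and these 12 were also the ones above background on all 6 arrays. Another 6 were above background on some arrays, and 6 on none. In the paired fit 0 of the 12 were called (adjusted p = 0.376 to 0.960), where 0.16% of all tested probe sets were. An unadjusted p under 0.05 was reached by 3 of them, both of Gli3 and 1 of Gas1, where 11.0% of all tested probe sets reached it. In the limma fit without the block 0 of the 12 were called, and 0.0% of all tested probe sets. An unadjusted p under 0.05 was then reached by 0 of the 12 and by 3.52% of all tested probe sets. For 9 probe sets the paired 95% interval of the difference included 0, and all 9 intervals lay between -0.48 and 0.31 on the log2 scale, that is between 0.715-fold and 1.24-fold. Fewer cells of a type and less RNA per cell cannot be told apart in such tissue pools.

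**Figure D1:**
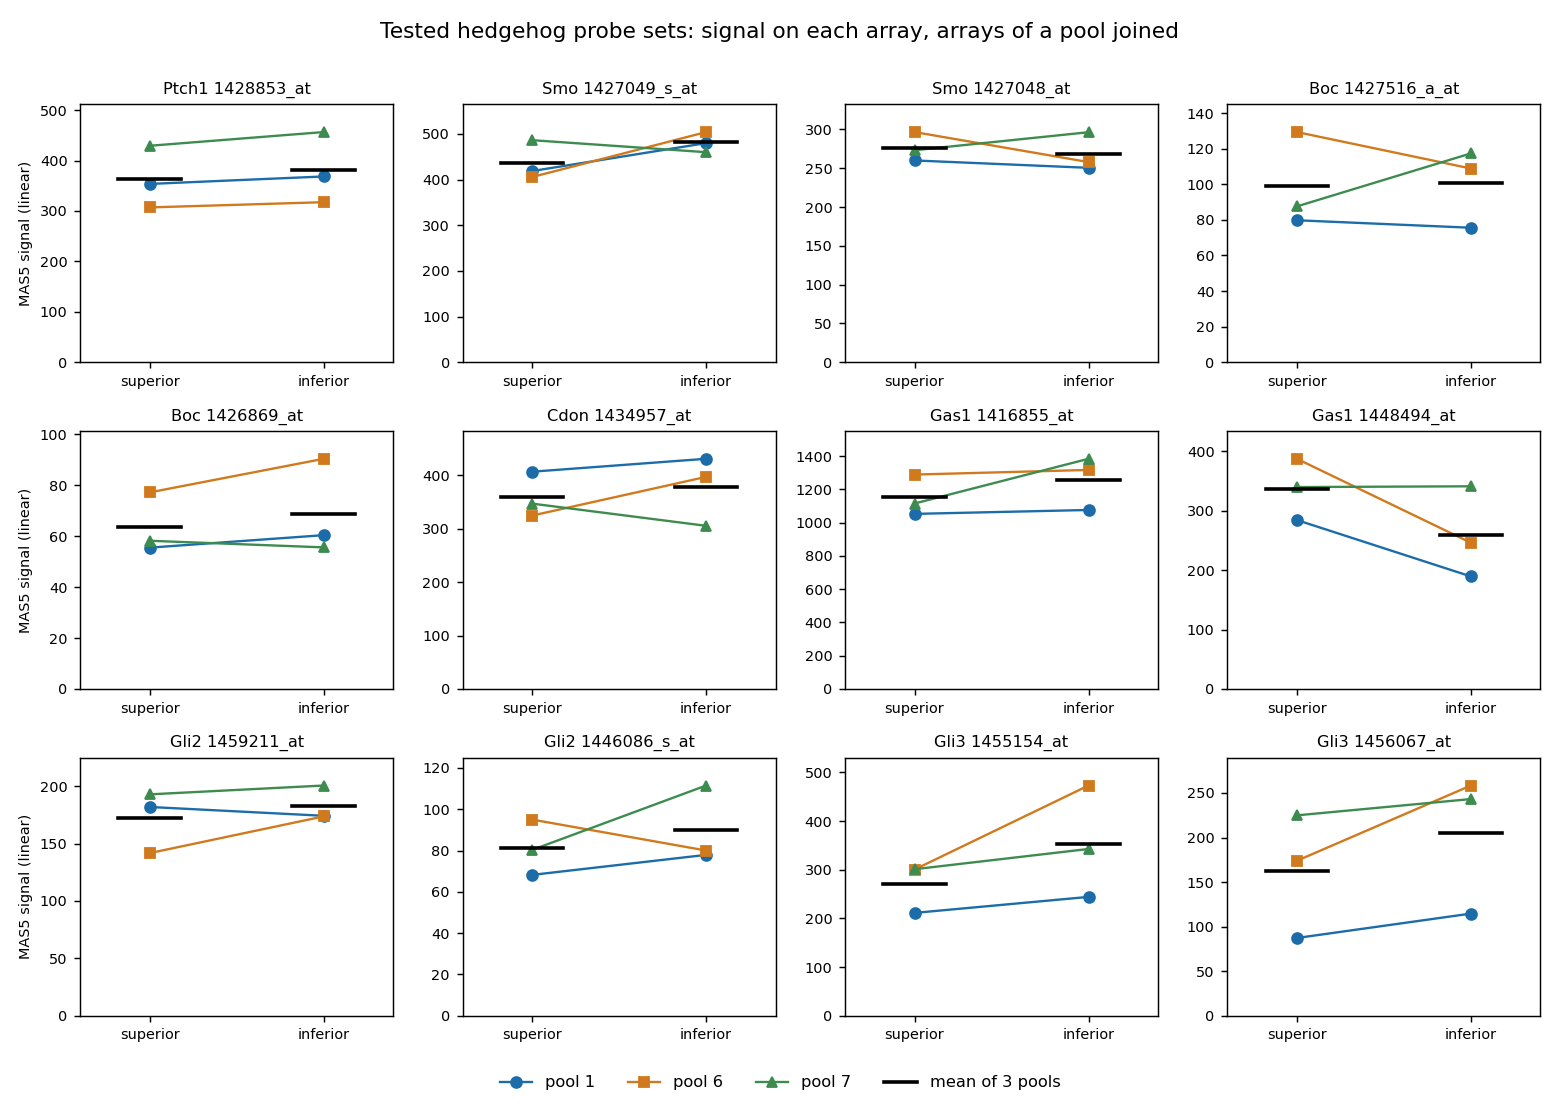
MAS5 signal (linear axis from 0) of the 12 tested hedgehog probe sets on each array, superior at left and inferior at right, with the arrays of a pool joined and black bars at the means of 3 pools. The superior and inferior values overlap in all 12 panels, and the Gli3 lines of pool 1 lie below those of pools 6 and 7.

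Ptch1, the receptor that holds Smo in check, had signals of 353.6, 307.0 and 429.3 in superior pools 1, 6 and 7, against 368.4, 317.4 and 456.5 in inferior pools, on its bright probe set 1428853_at. Pool 7 was brightest and pool 6 dimmest in both regions, and each superior value lay just below the inferior value of its pool. The log2 difference was -0.065 ± 0.088 (SE of the paired fit, n = 3 pools; 95% interval -0.27 to 0.14; limma adjusted p = 0.829), with -0.059, -0.048 and -0.088 in pools 1, 6 and 7. These 3 pool differences had an SD of 0.021, and the wider SE comes from the variance shared across probe sets. The other Ptch1 probe sets, 1439663_at and 1450824_at, were dim, the first above background on 2 of 6 arrays and the second on 0.

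Smo, the membrane protein that passes the signal inward, was measured by probe sets that differed in sign. Probe set 1427049_s_at had signals of 418.6, 405.5 and 486.2 in superior pools, against 479.8, 504.0 and 459.9 in inferior pools. Its log2 difference was -0.14 ± 0.10 (adjusted p = 0.649), with -0.20, -0.31 and 0.080 in pools 1, 6 and 7. Probe set 1427048_at had signals of 260.0, 296.6 and 273.2 in superior pools, against 250.5, 257.9 and 296.4 in inferior pools, a log2 difference of 0.045 ± 0.10 (adjusted p = 0.909). In every pool its difference had the opposite sign to that of the other, at 0.053, 0.20 and -0.12. The platform annotation gives both probe sets the same source sequence, and the suffix s marks a set whose probes can match more than 1 transcript. The remaining Smo probe set, 1442215_at, was above background on 1 array.

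Boc and Cdon are related cell surface proteins of the immunoglobulin superfamily that bind hedgehog ligands together with Ptch1. The brighter Boc probe set, 1427516_a_at, had signals of 79.8, 129.4 and 87.6 in superior pools, against 75.6, 108.9 and 117.4 in inferior pools. The superior value was the higher in pools 1 and 6 and the lower in pool 7, and the log2 difference was -0.031 ± 0.15 (adjusted p = 0.960). This sign turned under 75th percentile scaling, quantile normalization and cyclic loess, with values of 0.0076, 0.0084 and 0.015. Boc probe set 1426869_at had signals of 55.5, 77.2 and 58.2 in superior pools, against 60.4, 90.4 and 55.6 in inferior pools, and a difference of -0.091 ± 0.13 (adjusted p = 0.842). Its pool differences of -0.12, -0.22 and 0.062 ran opposite to those of the brighter probe set in every pool, although both means were below 0. The remaining Boc probe set, 1427517_at, had no signal above 1.8.

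Cdon had signals of 407.0, 324.8 and 347.2 in superior pools, against 431.2, 397.3 and 305.6 in inferior pools, on probe set 1434957_at. Superior values were below inferior ones in pools 1 and 6 and above in pool 7. The log2 difference was -0.063 ± 0.11 (95% interval -0.31 to 0.19; adjusted p = 0.872). The second Cdon probe set, 1421452_at, had signals of 6.7, 11.2 and 3.7 in superior pools, against 13.1, 9.4 and 8.9 in inferior pools. It was above background on 1 of 3 superior and 3 of 3 inferior arrays, but too dim to test.

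Gas1 is a lipid-anchored surface protein that presents hedgehog ligand to Ptch1, and its 2 tested probe sets gave the clearest disagreement. The brighter, 1416855_at, had signals of 1052.1, 1288.4 and 1114.5 in superior pools, against 1075.6, 1316.3 and 1383.3 in inferior pools. Each superior value was below the inferior one of its pool, with log2 differences of -0.032, -0.031 and -0.31, and the mean difference was -0.12 ± 0.093 (95% interval -0.34 to 0.088; adjusted p = 0.667).

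The dimmer Gas1 probe set, 1448494_at, had signals of 284.2, 387.3 and 339.7 in superior pools, against 189.3, 246.0 and 341.0 in inferior pools. Superior pools 1 and 6 lay well above their inferior partners, while the values of pool 7 were almost equal. The log2 differences of the pools were 0.58, 0.65 and -0.0055, with a mean of 0.41 ± 0.14 (95% interval 0.098 to 0.72; unadjusted p = 0.0156, adjusted p = 0.376). A difference at least this large in size was seen in 5.90% of tested probe sets. Without pool 7 this probe set was called (log2 0.61 ± 0.13, adjusted p = 0.0380), in a fit that rests on 2 pools and in which 116 probe sets were called, against 36 with all pools. Without the inferior array of pool 1, in the unpaired fit, the difference was 0.21. The remaining Gas1 probe set, 1456322_at, was too dim to test, with signals of 16.1, 15.9 and 13.1 in superior pools, against 15.8, 3.8 and 16.6 in inferior pools.

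The ratio of these Gas1 signals within an array does not change when all signals of the array are multiplied by a common factor. The dimmer over the brighter probe set was 0.270, 0.301 and 0.305 in superior pools 1, 6 and 7, against 0.176, 0.187 and 0.247 in inferior pools. All 3 superior ratios lay above all 3 inferior ones. Of the 5 hedgehog genes compared, only Gas1 had ratios that did not overlap between the regions. Of 4959 genes with at least 2 tested probe sets above background on all arrays, the brightest 2 being compared, 5.63% had ratios that did not overlap between regions. The gap between the log2 differences of the Gas1 probe sets was 0.53, and was 0.61, 0.68 and 0.31 in pools 1, 6 and 7. Among the same genes, 1.86% had a gap as large and 33.8% had opposite signs. For Smo the gap was 0.19, and 28.4% of genes had one as large. Among the 5 hedgehog genes with 2 tested probe sets, Gas1 and Smo had opposite signs and Boc, Gli2 and Gli3 the same sign.

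**Figure D2:**
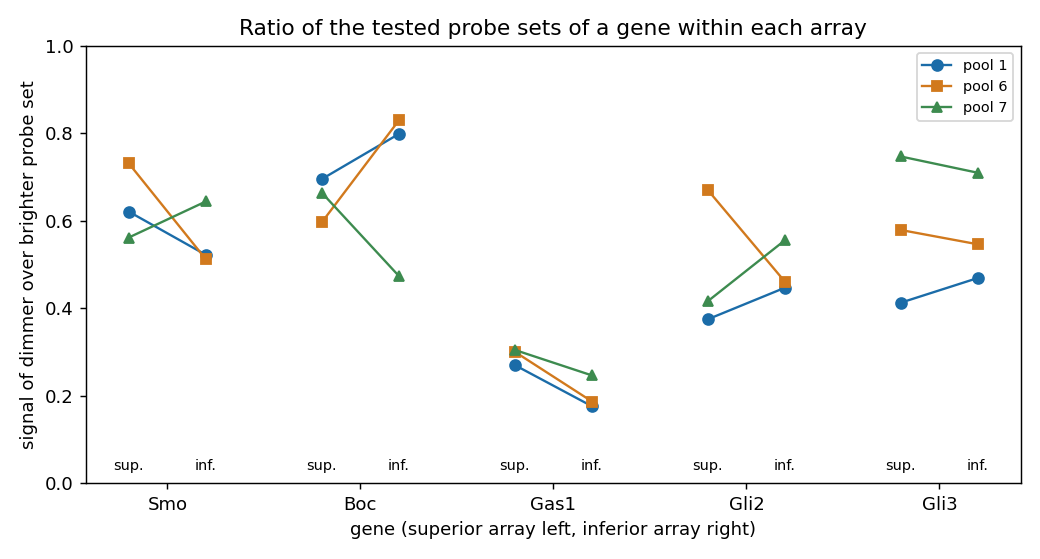
Signal of the dimmer over that of the brighter tested probe set of a gene within each array (linear axis), for the 5 hedgehog genes with 2 tested probe sets, superior arrays left and inferior arrays right, with the arrays of a pool joined. For Gas1 the superior ratios of 0.270 to 0.305 lie above the inferior ratios of 0.176 to 0.247, whereas those of the other 4 genes overlap, and 5.63% of 4959 genes had ratios that did not overlap.

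Hhip binds hedgehog ligand at the cell surface and limits its reach. All 4 Hhip probe sets were below background on all 6 arrays, with 6.0 the highest signal. The brightest on average, 1421426_at, had signals of 4.6, 2.8 and 4.0 in superior pools, against 3.1, 1.0 and 2.1 in inferior pools. At such levels the order of the values is not measured, and no region difference of Hhip was detectable.

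Gli1, the factor whose transcription reports the signal most directly, has a single probe set on the array, 1449058_at. Its signals were 10.4, 16.5 and 16.5 in superior pools, against 6.9, 13.0 and 16.9 in inferior pools. It was above background on 3 of 3 superior and 2 of 3 inferior arrays, with inferior pool 1 below it. Gli1 did not pass the filter on dim signal and so has no test in the paired fit. Its log2 difference was 0.23, made up of 0.43, 0.28 and -0.029 in pools 1, 6 and 7. When the filter was lifted and all 45037 probe sets were fitted, the adjusted p was 0.864.

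Gli2, the main activator of the family, had signals of 181.9, 141.7 and 192.9 in superior pools, against 174.2, 173.7 and 200.6 in inferior pools, on probe set 1459211_at. The regions overlapped, and the log2 difference was -0.094 ± 0.11 (95% interval -0.35 to 0.16; adjusted p = 0.798). Its other probe set, 1446086_s_at, had signals of 68.2, 95.0 and 80.3 in superior pools, against 77.9, 80.0 and 111.5 in inferior pools, a difference of -0.13 ± 0.15 (adjusted p = 0.791). The probe sets come from the same source sequence in the annotation, yet their pool differences had opposite signs in pools 1 and 6, at 0.061 and -0.29 for the first and -0.18 and 0.24 for the second.

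Gli3, the main source of Gli repressor, was measured by 2 tested probe sets that gave nearly the same difference. Probe set 1455154_at had signals of 211.2, 300.3 and 301.0 in superior pools, against 244.1, 473.0 and 342.6 in inferior pools. Probe set 1456067_at had signals of 87.2, 173.9 and 224.9 in superior pools, against 114.6, 258.4 and 243.2 in inferior pools. On both, every superior value was below the inferior one of its pool, while the regions overlapped across pools.

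The first Gli3 probe set had a log2 difference of -0.35 ± 0.12 (95% interval -0.61 to -0.082, unadjusted p = 0.0163), and the second one of -0.35 ± 0.12 (-0.62 to -0.083, unadjusted p = 0.0163). The adjusted p was 0.378 for both, so neither passed the test. By pool, the first gave -0.21, -0.65 and -0.18 and the second -0.38, -0.56 and -0.11 in pools 1, 6 and 7, so that pool 6 had the widest gap on each. Of all tested probe sets, 9.54% had a difference at least as large as the first and 19.0% were lower in superior tissue in every pool, as 4 of the 12 hedgehog probe sets were. Those 4 were both Gli3 probe sets, Ptch1 1428853_at and Gas1 1416855_at. In the unpaired fit the standard errors of the Gli3 differences were 0.25 and 0.42. Probe set 1450525_at, also of Gli3, exceeded background on 1 array.

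Marker genes of other tissues also differed between the samples beside these values. All 5 epicardial markers (Wt1, Tbx18, Tcf21, Upk1b and Upk3b) had higher means in superior pools. Their summed signals were 837.6 to 1490.7 there, against 432.0 to 714.8 in inferior pools, none of them at 0. Of these 5 markers 3 were called, where 0.241% of all tested genes were called with 1 probe set a gene. Summed signals of 5 heart muscle markers (Actc1, Myl7, Tnnt2, Myh6 and Nkx2-5) were 17185.4 to 21733.7 in superior pools, against 15880.6 to 16074.9 in inferior pools, with 4 means higher, 1 lower (Nkx2-5) and 0 of 5 called. The 5 neural crest markers had sums of 69.0 to 95.7 in superior pools, against 130.4 to 150.7 in inferior pools. Of these, Dlx2 (log2 -0.99), Ngfr (-0.79) and Sox10 (0.31) were tested and 0 called, while Tfap2b and Foxd3 were below background on all arrays. The sums of these 3 lists did not overlap between the regions, and 9.21% of single tested probe sets did not either. Each sum mostly follows the brightest genes of its list. The 5 second heart field markers (Isl1, Tbx1, Fgf10, Fgf8 and Hand2) had lower means in superior pools, with overlapping sums of 2162.9 to 2725.3, against 2358.0 to 3108.0 in inferior pools, none at 0, and 0 of the 4 tested were called, Fgf10 being too dim to test. The sums for endothelium, cushion mesenchyme, pharyngeal epithelium and embryonic blood also overlapped, with 0 called. The part of these markers in the Gli3 and Gas1 values was not tested.

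**Figure D3:**
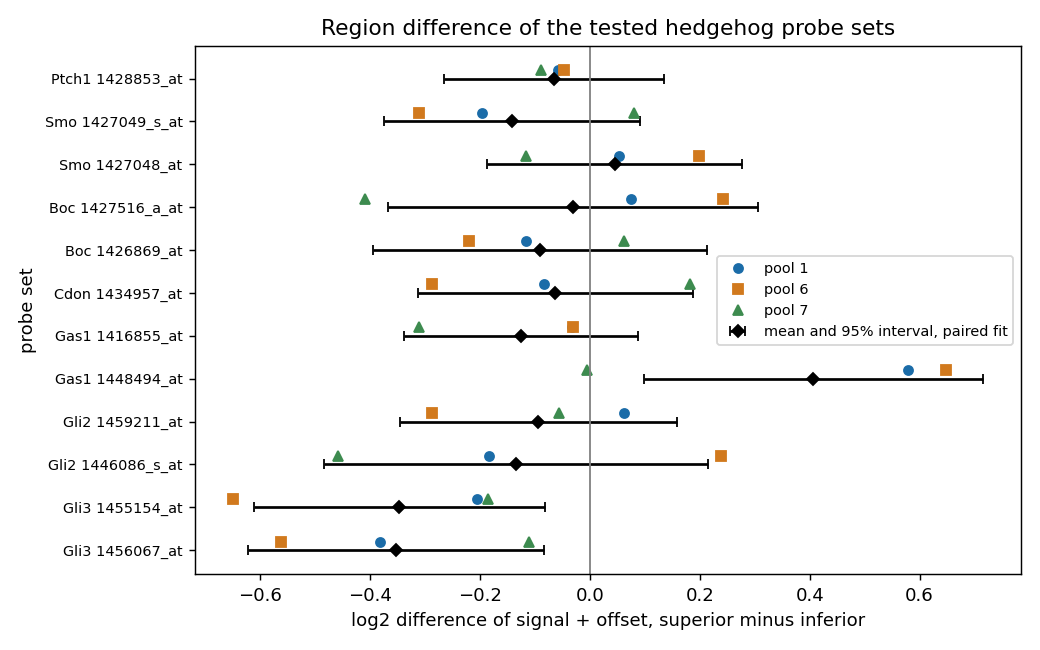
Log2 difference, superior minus inferior, of the 12 tested hedgehog probe sets, with black diamonds and bars for the mean and 95% interval of the paired fit and coloured points for each pool. The intervals of both Gli3 probe sets lie below 0 and that of Gas1 1448494_at above 0, the other 9 include 0, and 0 of 12 were called after adjustment over all tested probe sets.

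The hedgehog probe sets varied in how far the pools lay apart. The range of the 3 pool means had a median of 0.43 on the log2 scale over the 12 tested probe sets, beside 0.34 over all tested probe sets. The pool means of Smo 1427049_s_at spanned 0.077, and 95.1% of tested probe sets had a range at least as wide. Gli3 was at the other end. The pool means of probe set 1456067_at spanned 1.20 and those of 1455154_at 0.72 on the log2 scale, with pool 1 lowest on both, and 4.57% and 14.6% of tested probe sets had ranges at least as wide.

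Gli1 also had its lowest value of each region in pool 1. The ratio of 5' to 3' signal of the beta-actin control, which falls when RNA or labelled copies are shorter, was 0.449, 0.534 and 0.616 in superior pools 1, 6 and 7, against 0.443, 0.672 and 0.688 in inferior pools. It was lowest in pool 1 in both regions. In pools 6 and 7 it was lower in superior than in inferior tissue, with the widest gap in pool 6. In pool 1 it was slightly higher in superior tissue. The same ratio of the Gapdh control was 0.769, 1.11 and 1.19 in superior pools, against 0.452, 1.17 and 1.20 in inferior pools. Its widest gap was in pool 1, where the superior value was the higher. Control probe sets for E. coli and phage P1 transcripts had signals, relative to their median over the arrays, of 1.63 in superior pool 6. The value was 0.858 in inferior pool 6 and 0.982 to 1.02 on the other arrays. The part of these control values in the levels and differences of the hedgehog genes was not tested. Cdon 1434957_at had its highest value of each region in pool 1. Boc 1427516_a_at, both tested Gas1 probe sets, Gli2 1446086_s_at and Smo 1427048_at had their lowest value of each region there.

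**Figure D4:**
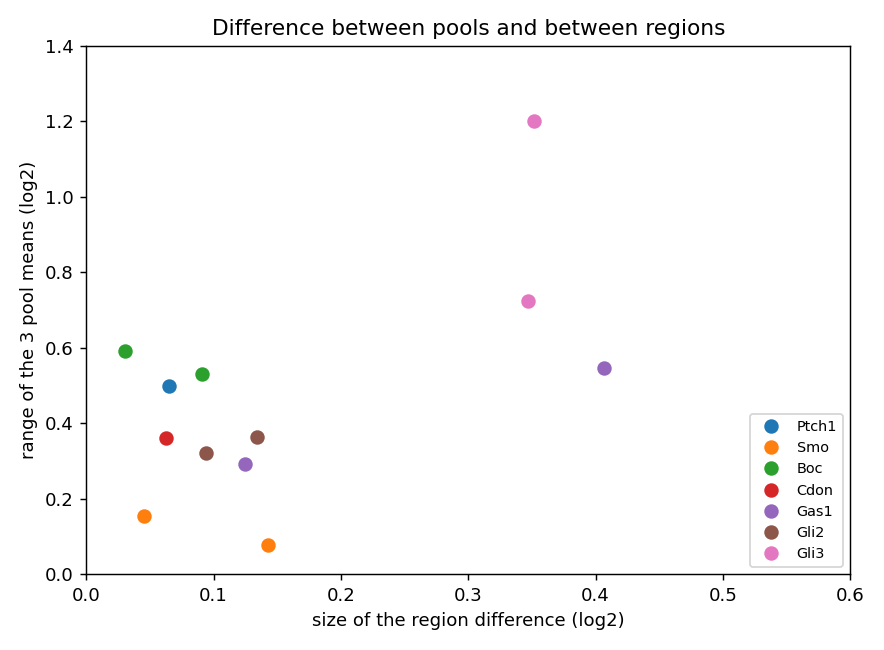
Range of the 3 pool means against the size of the region difference, both on the log2 scale, for the 12 tested hedgehog probe sets, each point a probe set coloured by gene. The Gli3 points have the widest ranges of the 12, 0.72 and 1.20, and a Smo point the narrowest, 0.077.

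Using for each gene its brightest tested probe set, 7 of 7 tested hedgehog genes had a mean difference below 0, with a median of -0.094 on the log2 scale, beside 50.8% of all 11195 genes and a median of -0.00283 over them. The median was -0.059, -0.29 and -0.088 in pools 1, 6 and 7. The count leaves out Gli1, whose difference was 0.23, and Hhip, both too dim to test. It also rests on the choice of probe set: the mean of both tested Gas1 probe sets was 0.14, and the dimmer Smo probe set gave 0.045. The Boc difference also turned under the 3 other scalings named above.

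The pattern of Gli1 over the 6 arrays was closest to those of Utp23, which acts in ribosomal RNA processing, Cdr2l and Spindoc. Their log2 values, each centred on its own mean, differed from those of Gli1 by a root mean square of 0.041, 0.053 and 0.064. The pattern of Ptch1 1428853_at was closest to those of Krt8, a keratin of simple epithelia (probe set 1423691_x_at), Vrk3 and Dock6, with root mean squares of 0.042, 0.049 and 0.051. These are the closest among 19606 tested probe sets naming 1 other gene for Gli1 and 19605 for Ptch1, over 6 arrays.

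Ligands were mostly near background. Shh, the ligand of the pharyngeal endoderm, had signals of 8.8, 8.8 and 9.9 in superior pools, against 6.0, 3.1 and 3.0 in inferior pools, on probe set 1436869_at. All 3 superior values were just above background and all 3 inferior values below it, as separate as those of 7.84% of the probe sets too dim to test. The other Shh probe set, 1427571_at, was at or below 1.6 on all arrays. Of 5 markers of pharyngeal epithelium, Krt8 (log2 0.020), Cdh1 (0.045), Foxa1 (0.56) and Foxa2 (0.62) had higher and Epcam (-0.28) lower means in superior pools. The Krt8 value is that of probe set 1420647_a_at, and probe set 1423691_x_at gave -0.049. Summed signals of the 5 markers, mostly of Krt8, were 618.4 to 782.2 in superior pools, against 573.9 to 859.8 in inferior pools. Foxa1 was below background on all arrays and Foxa2 on all but 1, and 0 of the 3 tested were called. The part of epithelium in the Shh values was not tested.

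Ihh, best known from cartilage and gut, had signals of 8.2, 7.1 and 8.4 in superior pools, against 4.9, 4.9 and 13.8 in inferior pools. Dhh, a ligand known from testis and nerve sheath, was above background on all 6 arrays on probe set 1434959_at. It had signals of 218.3, 277.6 and 149.3 in superior pools, against 260.9, 211.9 and 123.5 in inferior pools, a log2 difference of 0.13 ± 0.14 (adjusted p = 0.759). Its other probe set, 1422127_at, had the opposite sign (-0.30) but was too dim to test, with signals of 1.2, 18.2 and 1.4 in superior pools, against 1.4, 16.3 and 5.8 in inferior pools. Of the 9 genes of ligands and their release, 4 were tested and 0 called, where 0.241% of genes were called with 1 probe set a gene. Their median log2 difference was -0.031, but turned to 0.0066, 0.027 and 0.031 under 75th percentile scaling, quantile normalization and cyclic loess. Scube3, of a family of secreted proteins that help to release lipid-bearing ligand, had a difference of -0.30 ± 0.28 and Hhat, the enzyme that palmitoylates ligands, -0.044 ± 0.23.

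Among 16 other genes of reception and transduction, 14 were tested and 0 called, where 0.241% of all tested genes were called. Of the 14, 11 had means lower in superior pools and 3 higher (median log2 -0.087), where 50.8% of all tested genes were lower. Evc, a protein of the cilium base that works with Smo, had signals of 24.6, 22.1 and 29.8 in superior pools, against 31.2, 43.2 and 40.4 in inferior pools, with no overlap, as in 9.21% of tested probe sets. Its log2 difference was -0.53 ± 0.18 (adjusted p = 0.380). Spop, an adaptor for breakdown of Gli proteins, had a difference of -0.26 ± 0.10 (0.417 adjusted p) and Kif7, a kinesin that regulates Gli proteins in the cilium, -0.16 ± 0.12 (0.679 adjusted p).

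Of 15 genes of the cilium, 13 were tested and 0 called, where 0.241% of all tested genes were called. Of the 13, 7 had higher and 6 lower means in superior pools (median log2 0.038), where 50.8% of all tested genes were lower. The largest differences were those of Tctn1, a transition zone protein, at -0.34 ± 0.24, Tulp3, an adaptor for receptor entry into the cilium, at -0.24 ± 0.097, and Ift172, an intraflagellar transport protein, at -0.23 ± 0.17. Their adjusted p-values in limma were 0.638, 0.433 and 0.665.

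Of 9 genes known as hedgehog targets in other mouse tissues, 5 were tested and 0 called, where 0.241% of all tested genes were called. Of the 5, 3 had higher and 2 lower means (median log2 0.051), where 50.8% of all tested genes were lower. The cyclin genes of this list had mean differences of opposite sign, with neither called. Ccnd2 had signals of 2312.9, 1953.3 and 2219.6 in superior pools, against 1327.5, 1585.7 and 1406.1 in inferior pools, a log2 difference of 0.59 ± 0.11 (adjusted p = 0.124), while the related cyclin gene Ccnd1 had a difference of -0.20 ± 0.085 (adjusted p = 0.450). Mycn, a growth-promoting transcription factor, had a difference of 0.41 ± 0.094 (adjusted p = 0.219). These genes respond to many other signals as well. Foxf1, a forkhead factor of mesoderm next to endoderm, was dim and had signals of 15.1, 15.4 and 23.0 in superior pools, against 14.1, 12.8 and 32.2 in inferior pools.

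**Figure D5:**
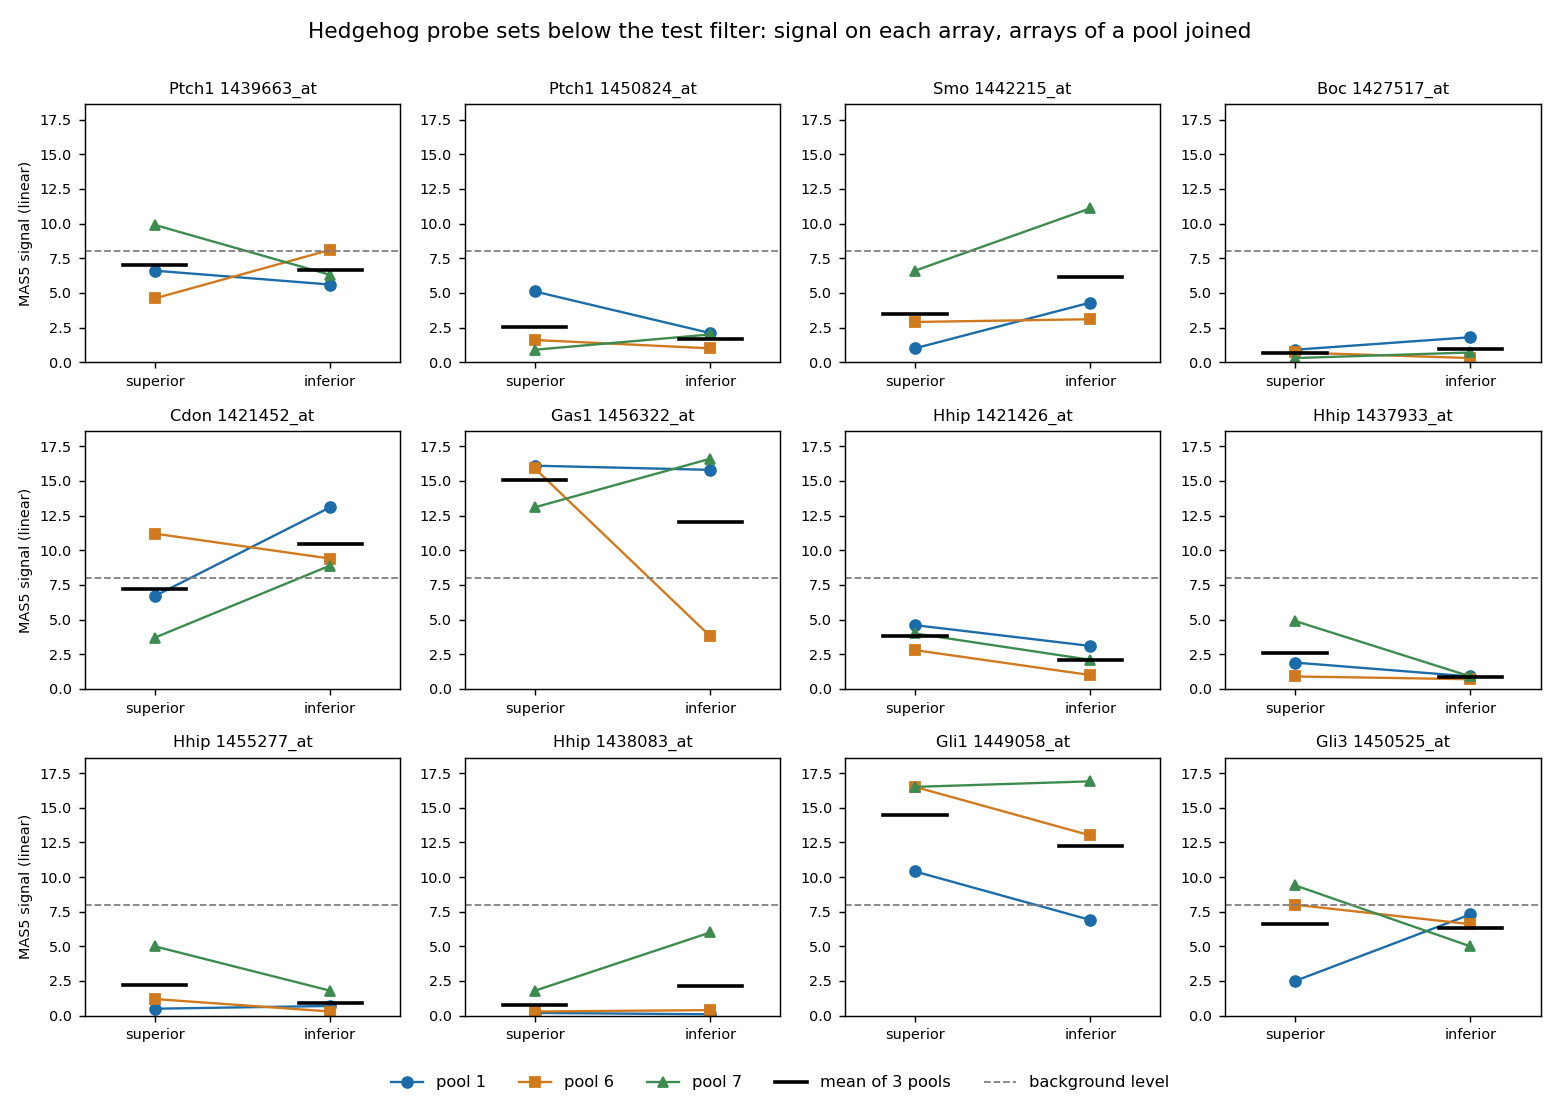
MAS5 signal (linear axis from 0) of the 12 hedgehog probe sets below the test filter on each array, superior at left and inferior at right, with the arrays of a pool joined, black bars at the means of 3 pools and a dashed line at the background level of 8.0. All 4 Hhip probe sets stay at or under 6.0, while Gli1 lies between 6.9 and 16.9.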

How the data were processed

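The deposited values are MAS5 intensity signals on a linear scale, per the submitters' processing notes. The sources used here do not give the MAS5 version. In the deposited intensity values each array had a mean of 100.0 after trimming, so signals are relative to the array. MAS5 takes mismatch signal off, which makes dim signals noisy. Of 45101 probe sets, 64 controls were left out. Names come from the platform annotation, in which 34945 name 1 gene, 932 several and 9160 none here, and all 24 member symbols matched a RefSeq table by gene ID.

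The scale was log2(signal + 3.2), with the 25th percentile of the signals as the offset, which understates the change of dim genes. Regions were compared with limma 3.58.1 in R 4.3.3 (lmFit, eBayes with trend and robust variance), with the pool number as a block, leaving 2 residual degrees of freedom (8.53 in the median once the variance was moderated over all tested probe sets). Deviations from the region mean correlated across probe sets by 0.79, 0.43 and 0.51 between same-numbered superior and inferior arrays of pools 1, 6 and 7, and by -0.54 to 0.20 between unlike ones. Deviations from a mean of 3 arrays sum to 0, so high values for same-numbered arrays push those for unlike ones down. The contrast is thus partly fixed in advance and does not test the pairing. Unlike-numbered arrays of pools 6 and 7 also correlated positively (0.18 and 0.20), and the labels do not state a pairing.

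The members, lists and tests were chosen with earlier results of these data known. Named genes were all members, the 3 ligand genes, the 3 largest differences of each other list (Foxf1 was added after its values were seen) and the 3 patterns closest to Gli1 and to Ptch1. Alternatives were the fit without the block, other offsets, filters, scalings and variance models, and leaving out pools or arrays.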

Additional observations from a re-analysis of the deposited data

How the results depend on the processing

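Of the hedgehog probe sets, 0 were called with and without the replicate block and under all other settings except 1: without pool 7, 1 was called, the Gas1 probe set 1448494_at, so that leaving out a pool or an array gave 0 to 1. The count over all tested probe sets was 36 with the block and 0 without the replicate block, 1 without the filter, 22 with an offset of 1, 2 in the top 25% by signal, 0 without trend and robust variance, and 0 to 231 when a pool or an array was left out (9, 231 and 116 without pools 1, 6 and 7 in the paired fit, and 0 without any single array in the unpaired one). Fits without a pool have 1 residual degree of freedom fewer. Of 214 values of the 12 probe sets under alternative settings, 191 kept their direction and their side of the threshold.

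Signs turned for Boc 1427516_a_at under 75th percentile scaling (0.0076), quantile normalization (0.0084) and cyclic loess (0.015), and the cause was not tested. For Gas1, the mean of the tested probe sets (0.14) and probe set 1448494_at (0.41) had the opposite sign to the brightest one, as did Smo 1427048_at (0.045). Leaving out a pool or an array gave log2 differences from -0.23 to 0.16 for Boc 1427516_a_at, -0.23 to 0.11 for Boc 1426869_at, -0.21 to 0.050 for Cdon 1434957_at, -0.32 to 0.028 for Gli2 1446086_s_at, -0.18 to 0.038 for Gli2 1459211_at, -0.72 to 0.032 for Gli3 1456067_at, -0.19 to 0.073 for Ptch1 1428853_at, -0.032 to 0.13 for Smo 1427048_at, -0.25 to -0.058 for Smo 1427049_s_at, -0.23 to -0.031 for Gas1 1416855_at and 0.21 to 0.62 for Gas1 1448494_at. Gli3 1455154_at stayed below 0 under every setting (-0.59 to -0.11), and Gli3 1456067_at did so except in the unpaired fit without the superior array of pool 1.

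The median of the reception and transduction list was -0.074 without the filter, -0.061 with an offset of 16, -0.11 in the top 25%, -0.048 under 75th percentile scaling, -0.12 under quantile normalization, -0.11 under cyclic loess, and -0.11 to -0.044 when a pool or an array was left out. That of the targets was 0.32 without the filter, 0.23 in the top 25%, and -0.012 to 0.32 when a pool or an array was left out. Such leave-outs gave medians of -0.18 to -0.052 for the hedgehog genes, -0.24 to 0.11 for the ligand list and -0.083 to 0.076 for the cilium list. The ligand median turned to 0.0066, 0.027 and 0.031 under 75th percentile scaling, quantile normalization and cyclic loess. In the top 25% by signal it was 0.13, which is the difference of Dhh alone, the only gene of the list that bright. Dim signal limits what can be said of Gli1, Hhip and Shh.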
